A study of Sus scrofa with 6 samples.

Results

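The subunits of the RNA exosome are encoded by the genes EXOSC1 to EXOSC10. They were taken by symbol from a table of 29884 genes, in which all 10 were present, and all 10 averaged 0.5 FPKM or more and so passed the filter on low values. FPKM is a read number scaled to transcript length and library total, so that levels of different genes can be set side by side. As a set they were selected on their FPKM values in the comparison of RA with control, so their changes there are given as a description, without a test. RNA sequencing measured 6 libraries of pig (Sus scrofa) testis cells in culture that the labels call porcine primitive spermatogonia. The RA group (3 libraries) received all-trans-retinoic acid, a metabolite of vitamin A with a known role in the entry of mammalian germ cells into meiosis, at 2 umol/L. The control group (3 libraries) received 0.1% ethanol and no RA. Whether the RA group also received ethanol is not stated in the labels. The labels used here state no separate animals or cultures for the libraries of a group. Errors and p-values thus cover library-to-library spread alone, and this may be technical.

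The RNA exosome is a protein complex of the nucleus and cytoplasm that degrades or trims RNA from its 3′ end. EXOSC4 to EXOSC9 form a ring of related proteins with the fold of a bacterial phosphate-dependent ribonuclease, and EXOSC1, EXOSC2 and EXOSC3 form an RNA-binding cap on it. In the human complex this barrel of 9 proteins has no catalytic activity. The ribonucleases DIS3, DIS3L and EXOSC10 dock onto it and cut the RNA, and cofactor complexes built around helicases bring the substrates. In the nucleus the complex matures ribosomal RNA and removes unstable transcripts, and in the cytoplasm it degrades messenger RNA from the 3′ end. In mice, EXOSC10 is needed in male germ cells for normal sperm production.

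Read totals behind the FPKM values lay between 63836470 and 87520891 in RA libraries and between 62084199 and 79752197 in control libraries. The subunit genes had between 224 and 4355 reads in a library. Known RA targets answered the treatment: CYP26A1, which degrades RA, averaged 11.6 ± 1.91 FPKM in RA and 0.144 ± 0.0818 FPKM in control (SD, n = 3 libraries a group here and in later pairs of means; limma adjusted p = 6.21e-06). DHRS3, RARB and STRA8 also rose, with log2 changes of 5.86, 2.14 and 1.10 and limma adjusted p-values of 9.69e-08, 1.17e-05 and 0.00126. RA replicate 2 stood apart, with a mean correlation of 0.984 with the other RA libraries, against 0.991 for RA replicate 1, 0.989 for RA replicate 3 and 0.994 to 0.995 for the control libraries. Across genes, the log2 change in RA fell with transcript length (Spearman's rho = -0.32, and -0.20 without RA replicate 2). The libraries held more than germ cells. All 10 germ cell markers were detected, while CLU, a gene of Sertoli cells, the somatic cells that nurse germ cells, was at 9727 ± 342 FPKM in RA and 9242 ± 233 FPKM in control.

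Of the 10 subunit genes, all but 3 were higher on average in RA by a ratio of at least 1.29, and those 3, EXOSC7, EXOSC8 and EXOSC9, stayed between 0.982 and 1.08. In 6 genes (EXOSC1, EXOSC2, EXOSC4, EXOSC5, EXOSC6 and EXOSC10) every RA library was above every control library, which held for 23.9% of all 14567 genes kept; in 0 was every RA library below every control library, which held for 24.0%. Groups without overlap in either direction made up 48.0% of all genes. The same 6 were past the threshold of the limma fit across all genes (adjusted p under 0.05, higher in RA), against 13.9% of all genes, and 0 subunit genes were lower (12.0% of all genes were). At an unadjusted p under 0.05 the limma counts were also 6 higher and 0 lower, and edgeR and DESeq2 on recovered reads gave 6 and 0 each. Over all genes, edgeR called 1965 higher and 1685 lower, and DESeq2 2274 and 2165. These numbers also stand beside the edgeR and DESeq2 counts of the gene lists below. No share of all genes was taken at the unadjusted p. Without RA replicate 2, 6 subunit genes were past the threshold as higher and 0 as lower, beside 15.4% and 15.5% of all genes. The median log2 change, on the scale of log2(FPKM + 1) as in all log2 changes here unless said otherwise, was 0.39 over the subunit genes and -0.01 over all genes. The sum over the subunit genes was 108, 113 and 106 FPKM in RA replicates 1, 2 and 3, and 85.5, 85.1 and 88.1 FPKM in control replicates 1, 2 and 3. The sums of the groups did not overlap, and their means had a ratio of 1.27. In bulk libraries, more cells that express a gene and more RNA per cell cannot be told apart.

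**Figure D1:**
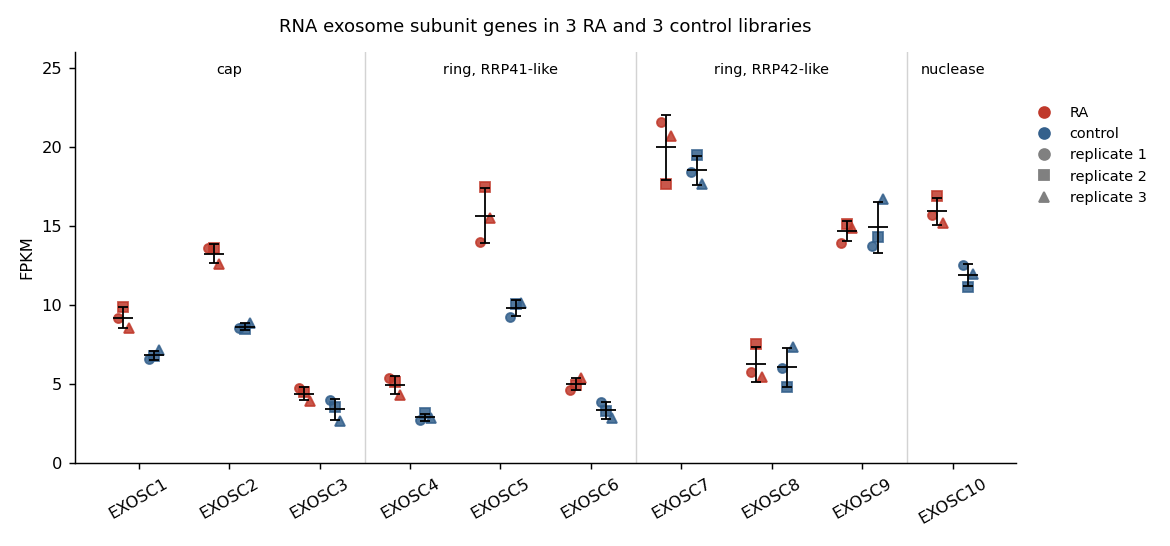
FPKM of the 10 RNA exosome subunit genes in each library, with RA in red and control in blue; symbols stand for replicates, and bars give the mean ± SD of 3 libraries. EXOSC1, EXOSC2, EXOSC4, EXOSC5, EXOSC6 and EXOSC10 have all RA points above all control points, while the points of EXOSC3, EXOSC7, EXOSC8 and EXOSC9 overlap.

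Of the cap subunits, EXOSC2 changed most. EXOSC2, the homologue of yeast Rrp4 with S1 and KH RNA-binding domains, had 13.6, 13.6 and 12.6 FPKM in RA replicates 1, 2 and 3, against 8.53, 8.51 and 8.87 FPKM in control replicates 1, 2 and 3. The lowest RA library lay well above the highest control library, and the means had a ratio of 1.53 (log2 change 0.56 ± 0.072, SE). EXOSC1, the homologue of yeast Csl4, had 9.20, 9.87 and 8.52 FPKM in RA replicates 1, 2 and 3 and 6.58, 6.77 and 7.13 FPKM in control replicates 1, 2 and 3. Its groups were apart as well, with a ratio of 1.35 (log2 change 0.38 ± 0.085, SE). EXOSC3, the homologue of yeast Rrp40, had 4.74, 4.49 and 3.95 FPKM in RA replicates 1, 2 and 3 and 4.002, 3.52 and 2.69 FPKM in control replicates 1, 2 and 3. Here RA replicate 3 was below control replicate 1, so the groups overlapped, and the log2 change of 0.30 ± 0.13 (SE) was not past the threshold. Inherited variants of human EXOSC3 cause a degeneration of cerebellum and motor neurons.

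The ring is built from 3 proteins most like yeast Rrp41 and 3 most like yeast Rrp42, which alternate around it. EXOSC4 (RRP41), EXOSC5 (RRP46) and EXOSC6 (MTR3) are the RRP41-like subunits, and all 3 were higher in RA. EXOSC4 had 5.37, 5.10 and 4.29 FPKM in RA replicates 1, 2 and 3 and 2.70, 3.15 and 2.83 FPKM in control replicates 1, 2 and 3. Its ratio of means, 1.70, was the largest of the 10 genes (log2 change 0.60 ± 0.11, SE). EXOSC5 had 13.97, 17.5 and 15.5 FPKM in RA replicates 1, 2 and 3 and 9.23, 10.1 and 10.1 FPKM in control replicates 1, 2 and 3, a ratio of 1.60. Its log2 change of 0.62 ± 0.095 (SE) was the largest on that scale, which understates changes of genes with low values such as EXOSC4. EXOSC6 had 4.62, 4.97 and 5.40 FPKM in RA replicates 1, 2 and 3 and 3.88, 3.32 and 2.84 FPKM in control replicates 1, 2 and 3. The gap between its groups was narrow, since control replicate 1 came close to RA replicate 1, and the ratio was 1.49 (log2 change 0.47 ± 0.12, SE).

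EXOSC7 (RRP42), EXOSC8 (RRP43) and EXOSC9 (RRP45, a target of antibodies in human autoimmune myositis) are the RRP42-like subunits, and in none of them did the groups separate. EXOSC7 had 21.5, 17.7 and 20.7 FPKM in RA replicates 1, 2 and 3 and 18.4, 19.5 and 17.7 FPKM in control replicates 1, 2 and 3. RA replicate 2 was within the control range, and the ratio was 1.08 (log2 change 0.10 ± 0.088, SE). EXOSC8 had 5.78, 7.52 and 5.44 FPKM in RA replicates 1, 2 and 3 and 5.99, 4.83 and 7.34 FPKM in control replicates 1, 2 and 3. It varied most among libraries of a group, with an SD of 17.9% of the mean in RA and 20.8% in control, and its ratio was 1.03 (log2 change 0.04 ± 0.16, SE). EXOSC9 had 13.9, 15.1 and 14.9 FPKM in RA replicates 1, 2 and 3 and 13.7, 14.3 and 16.7 FPKM in control replicates 1, 2 and 3. Its highest library was control replicate 3, and it was the only subunit gene with a ratio under 1 (0.982, log2 change -0.02 ± 0.089, SE).

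Each RRP41-like protein forms a dimer with an RRP42-like protein in the human ring: EXOSC4 with EXOSC9, EXOSC5 with EXOSC8 and EXOSC6 with EXOSC7. The genes were grouped in this textbook way after their values were seen. The FPKM ratio of EXOSC4 to EXOSC9 within a library was 0.385, 0.337 and 0.289 in RA replicates 1, 2 and 3 and 0.198, 0.220 and 0.169 in control replicates 1, 2 and 3. The ratio of EXOSC5 to EXOSC8 was 2.42, 2.32 and 2.85 in RA replicates 1, 2 and 3 and 1.54, 2.09 and 1.38 in control replicates 1, 2 and 3. The ratio of EXOSC6 to EXOSC7 was 0.215, 0.282 and 0.261 in RA replicates 1, 2 and 3 and 0.211, 0.171 and 0.161 in control replicates 1, 2 and 3. In each pair all RA libraries lay above all control libraries, by a narrow margin for EXOSC6 to EXOSC7, where RA replicate 1 and control replicate 1 were almost level. These ratios are made of the same values as the changes above, and no other gene pairs were set beside them. Summed over their 3 genes, the RRP41-like subunits were at 25.6 ± 1.83 FPKM in RA and 16.0 ± 0.435 FPKM in control. The RRP42-like subunits summed to 40.9 ± 0.470 FPKM in RA and 39.5 ± 1.96 FPKM in control, a ratio of 1.03 against 1.59 for the RRP41-like ones and 1.42 for the cap.

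**Figure D2:**
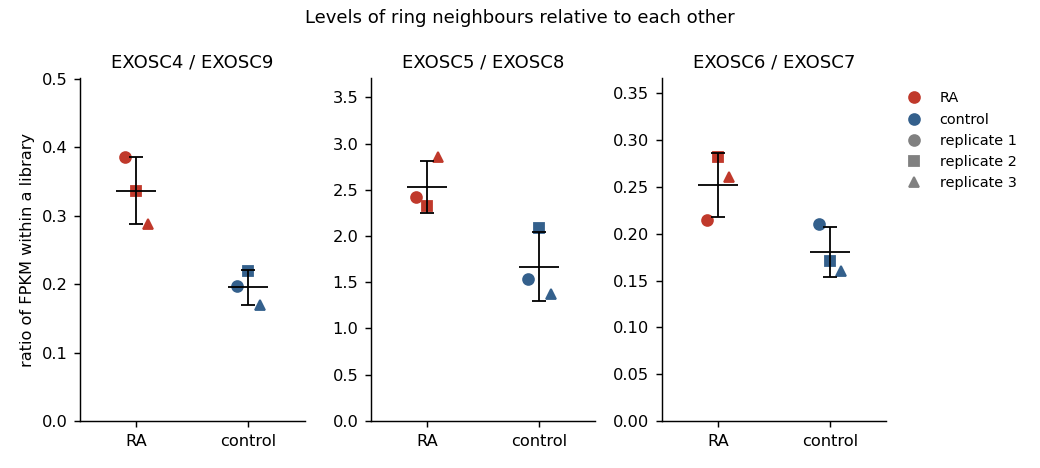
Ratio of the FPKM of an RRP41-like subunit gene to that of its RRP42-like dimer partner in each library, with RA in red to the left of control in blue; symbols stand for replicates, and bars give the mean ± SD of 3 libraries. The mean ratio was 0.337 in RA and 0.196 in control for EXOSC4 to EXOSC9, 2.53 and 1.67 for EXOSC5 to EXOSC8, and 0.252 and 0.181 for EXOSC6 to EXOSC7.

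EXOSC10, the homologue of yeast Rrp6 and a ribonuclease of the nuclear complex, had 15.7, 16.9 and 15.2 FPKM in RA replicates 1, 2 and 3 and 12.5, 11.2 and 11.96 FPKM in control replicates 1, 2 and 3. The groups were clearly apart, with a ratio of 1.34 (log2 change 0.39 ± 0.077, SE). The other catalytic subunits had lower levels and passed no test. DIS3, which carries the main nuclear 3′ exonuclease and an endonuclease, had 3.31, 1.42 and 3.15 FPKM in RA replicates 1, 2 and 3 and 2.87, 3.88 and 3.20 FPKM in control replicates 1, 2 and 3 (log2 change -0.29, limma adjusted p = 0.356). RA replicate 2 was the lowest of the 6 libraries, and without it the log2 change was -0.02. DIS3L, the cytoplasmic counterpart, averaged 2.27 ± 0.272 FPKM in RA and 2.45 ± 0.0328 FPKM in control (limma adjusted p = 0.566).

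The levels of the subunit genes spanned 4.54-fold in RA, from 4.39 FPKM for EXOSC3 to 20.0 FPKM for EXOSC7. In control they spanned 6.40-fold, from 2.89 FPKM for EXOSC4 to 18.5 FPKM for EXOSC7. In RA the order after EXOSC7 was EXOSC10, EXOSC5, EXOSC9, EXOSC2, EXOSC1, EXOSC8, EXOSC6, EXOSC4 and EXOSC3. The ranges of EXOSC10 and EXOSC5, of EXOSC5 and EXOSC9, of EXOSC6 and EXOSC4, and of EXOSC4 and EXOSC3 overlapped. Within each RA library, EXOSC5 was still above EXOSC9 and EXOSC4 above EXOSC3. Differences between genes were not tested. In control the order after EXOSC7 was EXOSC9, EXOSC10, EXOSC5, EXOSC2, EXOSC1, EXOSC8, EXOSC3, EXOSC6 and EXOSC4. The overlapping neighbours were EXOSC1 and EXOSC8, EXOSC3 and EXOSC6, and EXOSC6 and EXOSC4, though within each control library EXOSC6 was above EXOSC4. EXOSC10 and EXOSC5 thus lay above EXOSC9 in RA by their means and below it in control. Among RA libraries, 6 subunit genes were highest in RA replicate 2 and 6 were lowest in RA replicate 3.

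Transcript length moved with the changes over all genes. The subunit transcripts were 968 to 3173 bases long (median 1379), against a median of 3208 bases over all genes kept, and 19.0% of the genes within that length range were called higher in RA and 9.40% lower. EXOSC7 and EXOSC8, at 968 and 979 bases, had the shortest transcripts of the subunit genes, EXOSC9 had one of 1607 bases, and EXOSC10, at 3173 bases, the longest. The part of length in the changes of the subunit genes was not tested beyond the correction that follows. After a correction of each library for length, the log2 changes were 0.48 for EXOSC4, 0.50 for EXOSC5, 0.45 for EXOSC2, 0.39 for EXOSC10 and 0.34 for EXOSC1, all past the threshold still. EXOSC6 was at 0.36 and no longer past it, so that 5 subunit genes were, where 14.8% of all genes were called higher and 12.8% lower. EXOSC7, EXOSC8 and EXOSC9 were at -0.03, -0.08 and -0.12, so that the signs of EXOSC7 and EXOSC8 turned, and that of EXOSC8 also did without RA replicate 2 (-0.08). The correction removes any trend with length, whatever its source.

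**Figure D3:**
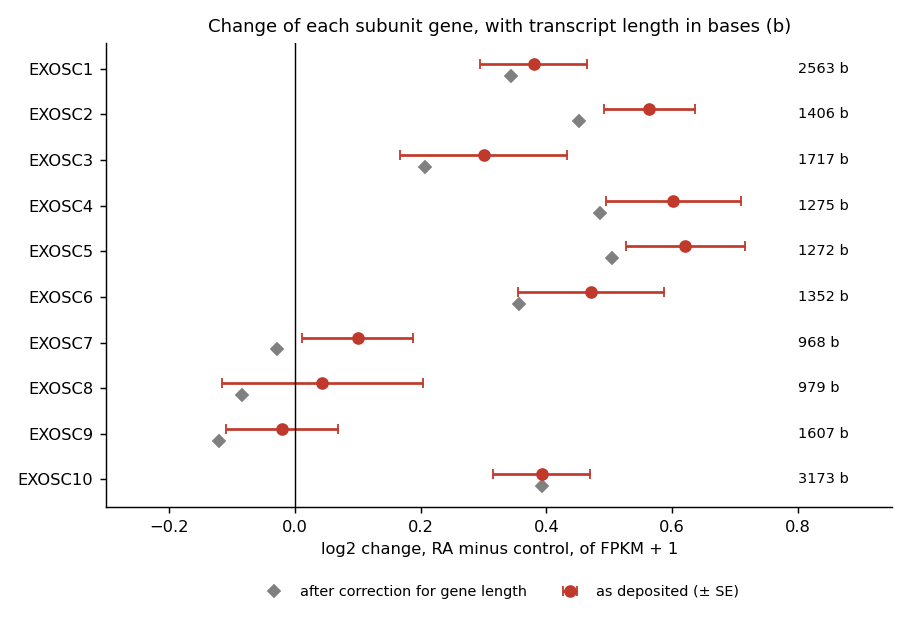
Log2 change of each subunit gene, RA minus control, on the log2(FPKM + 1) scale as deposited (red, ± SE, 3 libraries per group) and after correction of each library for transcript length (grey diamonds), with the transcript length in bases at the right. The correction lowers most values slightly and leaves EXOSC7, EXOSC8 and EXOSC9 near or below 0.

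**Figure D4:**
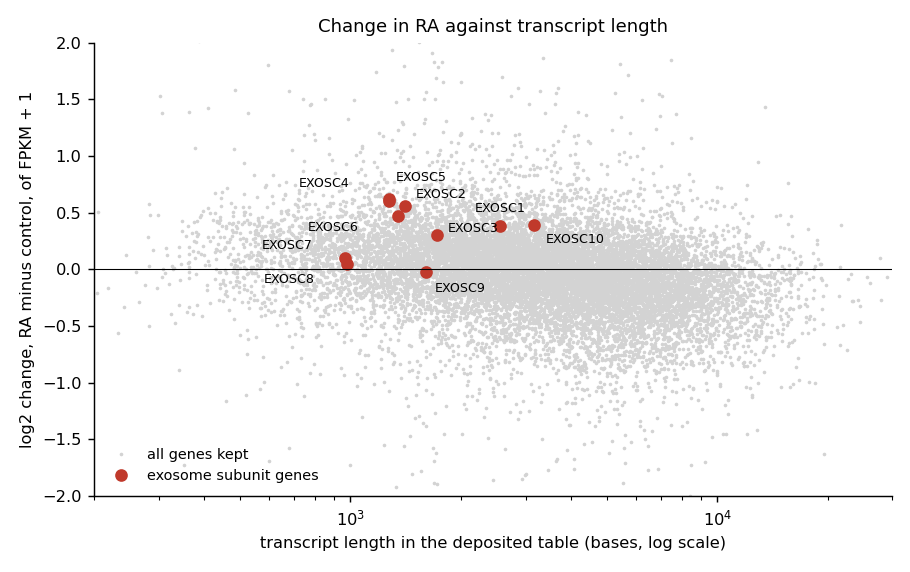
Log2 change of every gene kept, RA minus control (grey), against transcript length on a log axis, with the subunit genes in red; 148 genes lie outside the axes. The cloud slopes down with length, and EXOSC7 and EXOSC8 lie at the short end with changes near 0.

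The calls of 2 subunit genes were lost in some fits without a library. In those fits, 1201 to 1888 genes were called higher over all genes, against 2019 with all libraries. EXOSC1 was not past the threshold without RA replicate 1, control replicate 1 or control replicate 2, with log2 changes of 0.38, 0.36 and 0.37. EXOSC6 was not past it without RA replicate 3, control replicate 2 or control replicate 3, with log2 changes of 0.42, 0.47 and 0.38, nor with the replicate number as a block. EXOSC2, EXOSC4, EXOSC5 and EXOSC10 were past it in all 18 alternatives, and EXOSC3, EXOSC7, EXOSC8 and EXOSC9 in 0 of 18. Across those alternatives the log2 change lay between 0.45 and 0.62 for EXOSC2, 0.48 and 0.77 for EXOSC4, 0.50 and 0.70 for EXOSC5, and 0.35 and 0.43 for EXOSC10. These ranges mix scales, since edgeR and DESeq2 work on reads and some alternatives use other pseudocounts. The authors' deposited table of genes they called lists the same 6 genes, as higher in RA. Their calls rest on the same 6 libraries and cover 4377 of 29884 genes, both directions together. The authors' own log2 fold changes, not on the log2(FPKM + 1) scale, were 0.80 for EXOSC4, 0.71 for EXOSC5, 0.65 for EXOSC2, 0.60 for EXOSC6, 0.46 for EXOSC1 and 0.45 for EXOSC10.

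The subunit genes are spread over the genome. In the coordinates of the deposited table, EXOSC5, EXOSC6 and EXOSC10 lie on chromosome 6, EXOSC2 and EXOSC3 on chromosome 1, and the other 5 on a chromosome each. EXOSC4 lies on chromosome 4 from 618993 to 621336, on the minus strand, wholly within the ncRNA LOC102163278 on the plus strand. That ncRNA averaged 2.11 ± 0.135 FPKM in RA and 1.74 ± 0.176 FPKM in control (limma adjusted p = 0.188). The strand setting of the counting is not stated in those sources, and exon positions were not compared. Without strand, reads of EXOSC4 and of this antisense gene cannot be told apart wherever their exons overlap. The same holds for the overlaps named below. EXOSC6, on chromosome 6 from 13295591 to 13296942, spans 1352 bases, the length of its transcript, so the deposited model has no intron.

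Several subunit genes overlap or face another gene. EXOSC9 (chromosome 8, 102265656 to 102278179) overlaps 619 bases of the cyclin gene CCNA2 on the other strand, EXOSC8 (chromosome 11, 12817081 to 12825847) overlaps 90 bases of SUPT20H, and EXOSC3 (chromosome 1, 238536341 to 238541756) overlaps 32 bases of TRMT10B. Of these, SUPT20H, a subunit of the SAGA coactivator, fell to 12.9 ± 1.26 FPKM in RA, against 16.3 ± 0.972 FPKM in control (limma adjusted p = 0.0337). CCNA2 and TRMT10B passed no test (limma adjusted p = 0.890 and 0.580). EXOSC1, EXOSC5, EXOSC7 and EXOSC9 start 123, 120, 73 and 82 bases from the start of a gene on the other strand. The one beside EXOSC9, the ncRNA LOC110262162, was under the filter, and the other neighbours passed no test: ZDHHC16 beside EXOSC1 had a log2 change of 0.12 (limma adjusted p = 0.280), BCKDHA beside EXOSC5 of 0.21 (0.147) and ZDHHC3 beside EXOSC7 of 0.21 (0.0776). Neighbours were taken by position and are named for that reason alone.

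Genes of the catalytic partners and cofactors were mostly not called. Of 26 measured partner genes, 0 rose and 2 fell by limma, against 13.9% higher and 12.0% lower of all genes. At an unadjusted p under 0.05, limma gave 2 higher and 4 lower, edgeR with adjusted p gave 0 and 1, and DESeq2 gave 0 and 2. Their median log2 change was -0.01, and 0.00 without RA replicate 2. RA replicate 2 was the lowest of the 6 libraries in 14 of the 26 partner genes and in 0 of the 10 subunit genes. It was the highest of the 6 in 8 partner genes and in 5 subunit genes. No share of all genes was taken for these counts, so they cannot be judged against it. The partner transcripts were longer, with a median of 3955 bases, and the part of length and of RA replicate 2 in these values was not tested.

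MTREX, listed as SKIV2L2, is the helicase at the centre of the nuclear cofactors. It had 8.94, 3.66 and 10.05 FPKM in RA replicates 1, 2 and 3 and 7.49, 9.46 and 9.09 FPKM in control replicates 1, 2 and 3 (limma adjusted p = 0.529). RA replicate 2 alone was low, and without it the log2 change was 0.12 (limma adjusted p = 0.417). In the TRAMP complex, which adds short tails to nuclear RNA, the poly(A) polymerase TENT4A, listed as PAPD7, fell to 18.5 ± 0.524 FPKM in RA, against 22.2 ± 1.15 FPKM in control (limma adjusted p = 0.0291). Its adjusted p was 0.0598 to 0.100 when any library other than RA replicate 2 was left out, with log2 changes from -0.28 to -0.21 against -0.25 with all libraries. After the length correction the log2 change was -0.20 (adjusted p = 0.0779), and with the replicate block the adjusted p was 0.0657. In the PAXT connection, which targets polyadenylated nuclear RNA, the zinc finger protein ZFC3H1 had 2.57, 1.26 and 2.78 FPKM in RA replicates 1, 2 and 3 and 3.73, 4.22 and 4.68 FPKM in control replicates 1, 2 and 3. ZFC3H1 fell (log2 change -0.73 ± 0.20, SE, limma adjusted p = 0.0303), with an adjusted p of 0.0629, 0.0986 and 0.106 without control replicates 1, 2 and 3. The adjusted p of ZFC3H1 was 0.0509 with edgeR and 0.0802 in limma with no filter on low values. Without RA replicate 2 its log2 change was -0.50 (limma adjusted p = 0.00623).

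The remaining partner groups had 0 calls in either direction by limma with all libraries. The SKI complex of the cytoplasm had log2 changes from -0.50 to 0.15 over 4 genes, the NEXT complex from -0.24 to 0.06 over 2 and the cap-binding link from 0.02 to 0.13 over 4. The lowest values were less negative without RA replicate 2. SKIC3, listed as TTC37, was then at -0.21 in place of -0.50, and ZCCHC8 of the NEXT complex at -0.12 in place of -0.24. RA replicates 1 and 3 of SKIC3, at 3.29 and 2.90 FPKM, were still below the control libraries, at 3.67 to 3.78 FPKM. The nucleolar MTREX adaptors NVL, NOP53 and UTP18 had log2 changes of 0.31, 0.28 and 0.16, with all RA libraries above all control libraries in each (limma adjusted p = 0.0961, 0.0861 and 0.200). Of all 26 partner genes, 5 had every RA library above every control library and 5 had every RA library below. Over all genes these shares were 23.9% and 24.0%. NVL was called higher without RA replicate 2 and NOP53 without RA replicate 3, and HBS1L, a factor linked to the SKI complex, was called lower without RA replicate 2.

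Ribosomal RNA processing is a process the nuclear exosome takes part in. Of 20 pre-rRNA processing genes, 11 rose and 0 fell by limma, beside 13.9% higher and 12.0% lower of all genes. At an unadjusted p under 0.05 the counts were 13 and 0, and with adjusted p edgeR gave 11 and 0 and DESeq2 13 and 0. Their median log2 change was 0.38, and it was 0.35 after the length correction, when 11 genes were called higher, beside 14.8% of all genes. NHP2, a core protein of the H/ACA particles that modify ribosomal RNA, had 15.1, 15.2 and 13.8 FPKM in RA replicates 1, 2 and 3 and 5.86, 6.47 and 5.34 FPKM in control replicates 1, 2 and 3. It rose most of this list (ratio 2.499, log2 change 1.19 ± 0.090, SE, limma adjusted p = 0.000111). PES1, needed for maturation of the large ribosomal subunit, rose to 55.5 ± 2.90 FPKM in RA, against 35.5 ± 1.20 FPKM in control (limma adjusted p = 0.000449). The count was 8 without control replicate 2 and without control replicate 3, and 16 without RA replicate 2, where 15.4% of all genes were called higher.

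Among the lists of messenger RNA decay, 14 deadenylation genes had 1 rise and 1 fall, beside 13.9% higher and 12.0% lower of all genes, the shares for each list in this paragraph. Their median log2 change was -0.18, and it was -0.07 without RA replicate 2 and -0.06 after the length correction. CNOT11, a subunit of the CCR4-NOT deadenylase, rose to 16.8 ± 1.64 FPKM in RA, against 12.996 ± 0.380 FPKM in control (limma adjusted p = 0.0224, and 0.0595 to 0.0840 without a control library). CNOT2, a scaffold of the same complex, fell to 26.1 ± 4.50 FPKM in RA, against 41.2 ± 3.15 FPKM in control (limma adjusted p = 0.00726). Of 10 genes of decapping and decay from the 5′ end, PATL1 alone passed, with a fall (log2 change -0.28, limma adjusted p = 0.0165), and the list's median was -0.13, or 0.00 without RA replicate 2. Its adjusted p was 0.103 after the length correction and 0.0579, 0.0654 and 0.0671 without RA replicate 1, control replicate 1 and control replicate 3. Of 8 genes of the LSM ring, which binds RNA ends for decay and splicing, LSM7 rose (log2 change 0.42, limma adjusted p = 0.00927). Every RA library was above every control library in 7 of the 8, and in 0 was every RA library below. Over all genes these shares were 23.9% and 24.0%. The median of that list was 0.20, and 0.10 both without RA replicate 2 and after the length correction. Of 10 genes of nonsense-mediated decay, SMG5 rose (log2 change 0.22, limma adjusted p = 0.0391) and the median was 0.01. The SMG5 call was lost without each library other than RA replicate 2, with adjusted p-values from 0.0812 to 0.137 and log2 changes from 0.19 to 0.25. It was also lost with the replicate block (adjusted p = 0.0879) and in limma without a variance trend (0.0586).

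**Figure D5:**
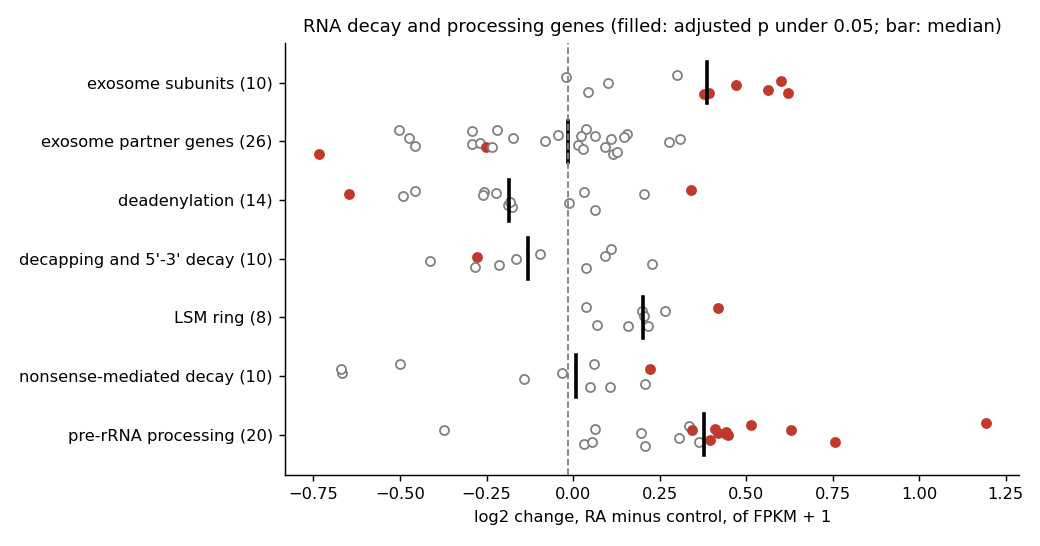
Log2 change, RA minus control, of each gene in the exosome subunits, their partner genes and 5 further RNA decay and processing lists, with the number of genes in brackets; filled points have a limma adjusted p under 0.05, black bars are list medians and the dashed line is the median of all genes, -0.01. Medians are 0.39 for the subunits, -0.01 for the partners and 0.38 for pre-rRNA processing.

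The genes whose values over the 6 libraries were most like the mean profile of the subunit genes were VPS26B, PTAFR and RPL37. Their centred log2 values differed from that profile by a root mean square of 0.0085, 0.015 and 0.017, the smallest of 12547 genes outside the lists. VPS26B, a subunit of the retromer that sorts membrane proteins, averaged 34.0 ± 1.21 FPKM in RA and 26.3 ± 0.260 FPKM in control. PTAFR, the receptor of platelet-activating factor, averaged 1.29 ± 0.113 FPKM in RA and 0.811 ± 0.00622 FPKM in control, and RPL37, a protein of the large ribosomal subunit, 1105 ± 51.4 FPKM in RA and 880 ± 21.2 FPKM in control.

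Markers of cell types also differed between the groups, and their part in the changes of the subunit genes was not tested. Of 10 germ cell markers, 0 rose and 5 fell by limma (0 and 7 at an unadjusted p under 0.05, 0 and 4 by edgeR and by DESeq2), beside 13.9% higher and 12.0% lower of all genes, the shares for every marker list here. Their sum was 196 to 207 FPKM in RA libraries and 245 to 252 FPKM in control libraries. Its largest part was UCHL1, at 105 ± 7.66 FPKM in RA and 121 ± 5.23 FPKM in control (limma adjusted p = 0.0719). Of 8 Sertoli cell markers, CITED1 and INHA rose, and SOX9, GATA4, AMH and FSHR fell. They summed to 9909 to 10678 FPKM in RA and 9377 to 9872 FPKM in control, nearly all of it CLU, which passed no test (limma adjusted p = 0.659). All 5 markers of peritubular myoid cells, the contractile cells around the tubules, rose, with a sum of 1517 to 1808 FPKM in RA and 428 to 504 FPKM in control. The 5 Leydig cell markers summed to 163 to 168 FPKM in RA and 108 to 115 FPKM in control, nearly all of it CYP11A1, which rose (limma adjusted p = 0.000262). LHCGR, the receptor of luteinizing hormone, fell to 0.720 ± 0.298 FPKM in RA, against 1.95 ± 0.395 FPKM in control (limma adjusted p = 0.00943), INSL3 and STAR passed no test, and CYP17A1 was under the filter. Endothelial markers summed to 21.9 to 25.9 FPKM in RA and 23.0 to 25.96 FPKM in control, and of these 4 EMCN alone passed, with a fall to 1.71 ± 0.278 FPKM in RA, against 4.30 ± 0.810 FPKM in control (limma adjusted p = 0.00235). The 4 macrophage markers had 0 calls by limma (1 higher and 0 lower at an unadjusted p under 0.05, by edgeR and by DESeq2) and summed to 12.5 to 18.1 FPKM in RA and 11.5 to 13.6 FPKM in control. No marker was at 0 in all libraries. Of 11 cell cycle genes, 10 passed the filter and MCM7 alone rose (log2 change 0.30, limma adjusted p = 0.0174), beside 13.9% of all genes, with a list median of 0.10.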

How the data were processed

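Libraries were grouped by title into RA (3) and control (3). The authors deposited FPKM values for 29884 genes, and whole-number counts, log2 fold changes, p-values and FDR for 4377 genes they called, per the file headers. Aligner, counting tool, strand setting and genome build: not given in the sources used here. For all 10 subunit genes, coordinates equal those of RefSeq for Sscrofa11.1. No sequence was used here. List genes were matched by symbol, 6 of 139 under an older symbol.

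The 14567 genes that averaged 0.5 FPKM or more were tested on log2(FPKM + 1), pseudocount 1, by limma 3.58.1 (R 4.3.3) with a variance trend, two-sided, Benjamini-Hochberg adjusted over all genes kept, threshold 0.05. The main limma fit alone was checked on simulated data, which held no trend with length and no library that stood apart. Reads were recovered from FPKM, length and a library total (whole within 0.05 in 99.8% to 99.9% of non-zero values; 42 genes left out) for edgeR 4.0.16 and DESeq2 1.42.0. Other alternatives were pseudocounts of 0.5 and 0.1, no filter or a filter of 1 FPKM, median-ratio and quantile scaling, limma without trend or with robust moderation, a lowess correction for length (span 0.3), a replicate block and each library left out.

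Members and lists were chosen with earlier results of these data known. Named are the members, DIS3, DIS3L, MTREX, up to 2 genes per direction and list with the smallest adjusted p under 0.05, the 3 nearest profiles (mean of at least 1 FPKM) and 4 RA targets. Gene neighbours, other list members and 3 exonucleases in the closing section were named after their values were seen. Exact permutation of 3 against 3 libraries cannot reach the threshold and was not run.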

Additional observations from a re-analysis of the deposited data

How the results depend on the processing

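Counts of calls were compared over 18 alternatives. The number of subunit genes called higher was 5 or 6 in settings that kept all libraries and 4 to 6 without a library, and the number called lower was 0 throughout. Over all genes, leaving out a library gave 1201 to 2248 higher and 992 to 2258 lower, against 2019 and 1750. Of the partner genes, 1 was called higher after quantile normalization, and 1 was called lower after the length correction, with edgeR, with no filter on low values and with the replicate block. Without a library 0 to 1 partner genes were higher and 0 to 3 lower. In the other lists together 14 were higher and 2 lower; 4 were lower with DESeq2 and 1 after the length correction, and without a library 9 to 19 were higher and 1 to 5 lower. The causes were not tested. Of the genes named by rule and tested one by one, MTREX, not called in any setting, changed sign. Its log2 change was 0.12 without RA replicate 2, the highest of the values without a library, and -0.50 without RA replicate 3, the lowest. Other list genes were not followed in this way, and some changed sign too, such as C1D (-0.04, and 0.06 without RA replicate 2). Of the subunit genes not called, EXOSC7 changed sign after the length correction (-0.03), EXOSC8 after the length correction (-0.08) and without RA replicate 2 (-0.08) or control replicate 2 (-0.09), and EXOSC9 without RA replicate 1 (0.01) or control replicate 3 (0.06). Same-numbered RA and control libraries deviated together in 1 of 3 pairs (correlations across genes of -0.21, -0.09 and 0.34) and the labels state no pairing, so the libraries were not treated as paired. With the replicate block 1610 genes were higher and 1405 lower over all genes, and 5 subunit genes higher. EXOSC3, EXOSC4, EXOSC6 and EXOSC8 had the fewest reads of the subunit genes, 224 to 712 in a library.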

Other observations

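DIS3L2, a relative of DIS3 that degrades uridylated RNA without the exosome, was chosen after its values were seen. It had 17.3, 18.5 and 16.4 FPKM in RA replicates 1, 2 and 3, against 8.86, 8.95 and 9.31 FPKM in control replicates 1, 2 and 3. The groups were far apart, their means differing 1.92-fold (log2 change 0.87 ± 0.074, SE). The limma adjusted p was 0.000193, and at most 0.00266 over the 18 alternatives. Its level was thus above that of DIS3 and DIS3L in every library, and in RA it was close to that of EXOSC10. PNPT1, the mitochondrial exonuclease whose fold the exosome ring shares, averaged 2.88 ± 0.920 FPKM in RA and 2.84 ± 0.384 FPKM in control (limma adjusted p = 0.968). ERI1, a 3′ exonuclease that trims histone messenger RNA and ribosomal RNA ends, averaged 0.881 ± 0.296 FPKM in RA and 1.15 ± 0.0686 FPKM in control (limma adjusted p = 0.260).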
